A study of Anolis carolinensis with 15 samples.

Results

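Integrins, laminins and the proteins that tie them together were followed in *col3a1*+ cells sorted as fibroblasts from regenerating green anole (*Anolis carolinensis*) tails. The members were all genes whose symbol begins with *itga* or *itgb* and a number, is *itgav* or *itgae*, is a numbered laminin chain (*lama*, *lamb* or *lamc*), or belongs to a short set of linkers and adaptors (*nid1*, *nid2*, *dag1*, *hspg2*, *agrn*, *ilk*, *parva*, *tln1*, *tln2*, *vcl* and the *fermt* genes). This rule used symbols and no measured value, but it was chosen with earlier results of these data known. It took 47 of the 26523 genes in the files. Of these, 21 were integrin α and β subunits, 10 were laminin chains, 5 were linkers and 8 were adaptors, while *itgb1bp1*, *itgb1bp2* and *itgb3bp* matched by symbol only and encode no integrin chain. No gene with the symbol *itgae*, *lamb2* or *lamc3* was among those taken.

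Tails of lizards were amputated, and *col3a1*+ cells were labelled with hybridization chain reaction probes and collected by fluorescence-activated sorting for bulk RNA-seq. There were 15 libraries. In the time course, 3 libraries each came from untreated tails at D7, D14 and D28 after amputation. In a separate experiment, 3 libraries each came from D21 tails of lizards injected intraperitoneally with zoledronic acid (ZA), a bisphosphonate used against osteoclasts, or with the vehicle (PBS), from the week before amputation until collection. All lizards were 9 to 12 months old and of both sexes. The gate was set on *col3a1*, and the study's text describes the time course cells as *krt5*- in one place and *krt5*+ in another, while it gives the PBS and ZA cells as *krt5*-. Replicates are called A, B and C after their titles, and the labels do not say whether each came from its own animal. The study's text calls the D21 replicates biological, counted by sample tails, and says that the time course experiments were repeated. P-values measure the spread between these libraries.

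Integrins are transmembrane receptors made of one α and one β chain, and the pair decides which matrix protein is bound. Laminins are trimers of an α, a β and a γ chain that polymerize into the sheet of every basement membrane, the thin matrix that separates epidermis, nerve, muscle and vessels from connective tissue. Nidogens and perlecan join that sheet to type IV collagen, dystroglycan and integrins anchor cells to it, and talin, kindlins, vinculin and the integrin-linked kinase complex couple integrin tails to actin inside the cell. In skin, integrin α6β4 holds the basal keratinocytes to a laminin of the epidermis that has the *lama3* and *lamb3* chains. Fibroblasts are better known for fibronectin and collagen receptors.

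Library totals ranged from 4237978 to 12699682 counts, and the members took between 0.348% and 0.793% of them. All 47 members were above 0 in 10 of the 15 libraries. The share was 0.723% to 0.793% in D7 libraries and lay below that range in each of the 12 others, at most 0.536%. Without *hspg2* and *tln1*, which together held 20.6% to 46.8% of the member counts, the D7 share of 0.410% to 0.456% still lay above the highest other library, at 0.392%. D28 A stood apart from its group. Its median Spearman correlation with the other D28 libraries was 0.80 over all genes, against 0.87 for D28 B and D28 C, and 0.97 to 0.98 for the D14 libraries within their group. A D14 library is described as sequenced ahead of the rest of the time course, but the labels do not say which. The study's text also reports batch effects among the PBS and ZA replicates without naming a library. No within-batch value could therefore be given for either experiment. D14 libraries had 1623 to 1642 genes at 0 counts and all others 3462 to 6614. The recorded treatment entry is N/A for PBS A and PBS for ZA A, which differs from their titles, and the titles were followed here.

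The sorted cells were checked against their markers. *col3a1*, the gene of the sort, was at 5077, 5166 and 7479 counts per 1000000 (CPM) in the D7 libraries A to C, at 1732, 1729 and 1777 CPM at D14 and at 22070, 5714 and 4870 CPM at D28. It was at 10300, 3435 and 9396 CPM in PBS and 5943, 2190 and 3317 CPM in ZA libraries. There was no unsorted library to set these levels against. Levels throughout are CPM scaled by edgeR's TMM factors over the 15 libraries, and they are compared only within a gene. Epidermal markers were present too. Of 20 listed, 15 were in the files, without *krt5*, *krt14*, *krt15*, *dsc2* and *cdh1*, and none of the 15 was at 0 throughout a group. Their summed level was 687 to 1289 CPM at D7, 4681 to 6771 CPM at D14, 1186 CPM in D28 A, 7322 and 5549 CPM in D28 B and C, 2498 to 6778 CPM in PBS and 5862 to 9537 CPM in ZA libraries. In such bulk libraries, fewer cells of a type and less RNA per cell cannot be told apart.

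Members were tested within a fit of the 9 time course libraries by edgeR's quasi-likelihood test, with p-values adjusted over all 21326 genes tested, and called at an adjusted p under 0.05. From D7 to D14, 5 of 47 members rose and 7 fell, against a background of 2.22% of all genes tested called higher and 2.40% called lower. From D14 to D28, 4 members rose and 1 fell, against 0.675% and 0.352% of genes. Over the whole interval from D7 to D28, 3 rose and 7 fell, against 4.05% and 4.21%. ZA and PBS libraries gave no call among the 46 members tested, against 0.00527% of genes higher and 0.0369% lower. The median log2 fold change over the members was -0.445 from D7 to D14, where that over all genes was 0.05. It was 0.03 from D14 to D28 and 0.10 from D7 to D28, beside 0.04 and 0.13 over all genes.

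In all, 18 members made the 27 calls of the time course, 9 of them in 1 comparison and 9 in 2, and 29 members made none. D7 and D14 libraries did not overlap in 33 of 47 members, where 42.7% of all genes tested did not. The corresponding counts were 14 of 47 beside 20.6% of genes from D14 to D28 and 19 of 47 beside 25.0% from D7 to D28.

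**Figure D1:**
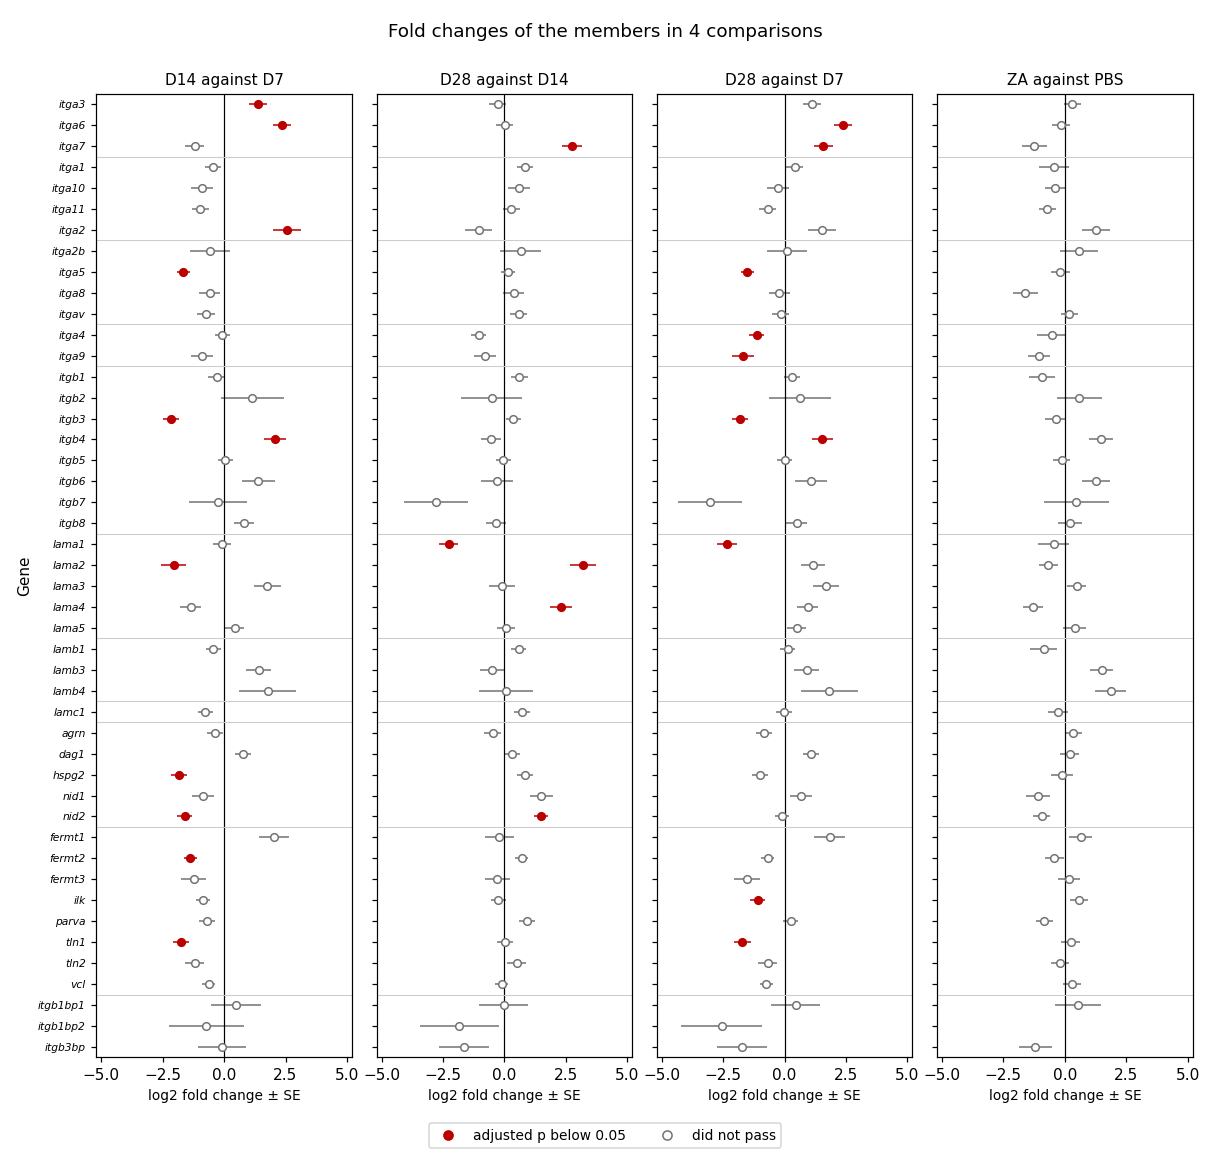
Log2 fold change with its standard error for 46 members in the comparisons D14 against D7, D28 against D14, D28 against D7 and ZA against PBS, grouped by role from laminin-binding α chains at the top to genes that match by symbol only at the bottom. Filled red points passed the test in edgeR (adjusted p under 0.05), 11, 5, 10 and 0 in the 4 panels, and the rightmost panel holds 45 members because *itgb1bp2* did not pass the count filter there.

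The 5 group means of each member were put in order. D7 held the highest mean of the 5 groups for 20 members and the lowest for 16. ZA held the highest for 12, D28 for 9, PBS for 5 and D14 for 1, while D14 held the lowest for 13. These orders were not counted over all genes, so whether they are particular to the members is not known. The heat map of 46 members shows the levels by role. D28 A, the library that stood apart over all genes, lay below both D28 B and D28 C in 9 of the 10 laminin chains. This was not counted over other genes, so it is not given as a trait of laminins.

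**Figure D2:**
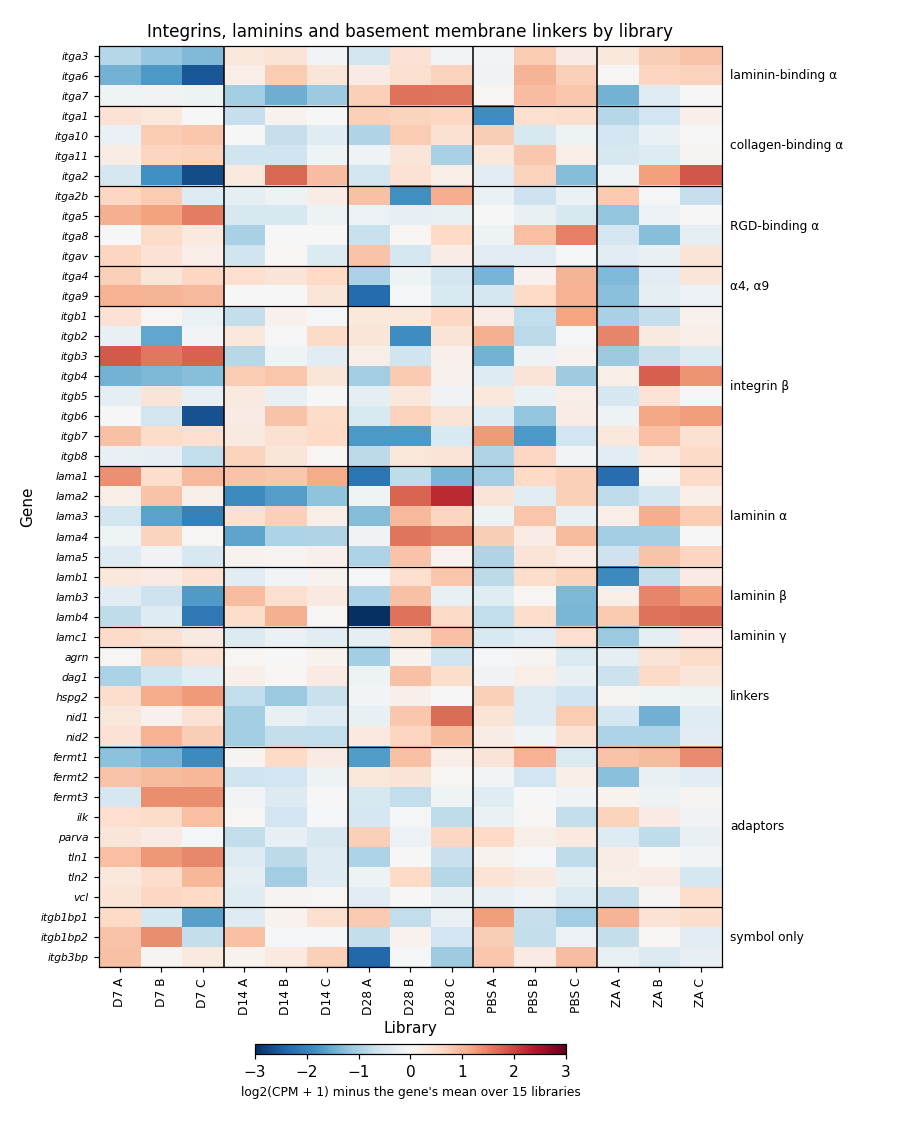
Each cell gives log2(CPM + 1) of a member in a library minus that gene's mean over the 15 libraries, with red above and blue below and the colour scale ending at -3 and 3. Rows are grouped by role and columns by group; D7 columns are blue for *itga6*, *itgb4* and *itga3* and red for *itgb3*, *itga5* and *tln1*, and D28 columns are red for *lama2* and *lama4* in D28 B and C.

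Receptors of the epidermal laminin were higher at D14 than at D7. *itga6* (chromosome 1, 210148833 to 210245487 of rAnoCar3.1.pri), which encodes the α chain of α6β4 and α6β1, was at 19.9, 15.8 and 8.35 CPM in D7 A, B and C, 62.7, 93.5 and 70.8 CPM at D14 and 65.4, 76.1 and 88.8 CPM at D28. All 6 later libraries lay above all D7 libraries. It rose by 2.36 ± 0.37 (log2, SE) from D7 to D14 (edgeR's quasi-likelihood test, adjusted p = 0.00771) and was 2.38 ± 0.37 above D7 at D28 (adjusted p = 0.006595). Between D14 and D28 it moved by 0.02 ± 0.35, within the spread. The D28 call held in each of 9 fits with 1 library left out, and the D14 call was lost only without D7 B (adjusted p = 0.0546).

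*itgb4* (chromosome 2, 135478664 to 135556323) encodes the β chain that pairs with α6 alone and has a long cytoplasmic tail that binds keratin-linked plaques. It was at 13.5, 14.3 and 15.1 CPM at D7, 64.5, 67.8 and 48.9 CPM at D14 and 17.8, 65.9 and 41.3 CPM at D28. The D7 libraries were tightly grouped and below all others, with D28 A close above them. It rose by 2.07 ± 0.43 to D14 (edgeR, adjusted p = 0.0219) and stood 1.53 ± 0.43 above D7 at D28 (adjusted p = 0.0464). The first call was lost without any single D7 or D14 library (highest adjusted p = 0.104), and the second without any single library other than D28 A (highest 0.1396). *itga3* (chromosome 6, 24999844 to 25073832), whose α3β1 receptor also binds this laminin, was at 18.8, 15.3 and 13.5 CPM at D7 and 44.4, 46.8 and 32.98 CPM at D14, without overlap. It rose by 1.38 ± 0.35 (edgeR, adjusted p = 0.0462), a call lost without any single D7 or D14 library or D28 C (highest adjusted p = 0.187).

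Neither *lama3* nor *lamb3*, the α3 and β3 chains of that laminin, passed the test. *lama3* was at 39.2, 18.5 and 13.6 CPM at D7 and 80.7, 96.4 and 66.5 CPM at D14, without overlap, a log2 fold change of 1.77 ± 0.55 (edgeR, adjusted p = 0.0858). *lamb3* was at 22.6, 18.1 and 8.08 CPM and then 55.3, 39.97 and 34.3 CPM, a log2 fold change of 1.41 ± 0.51 (edgeR, adjusted p = 0.129). Its D7 and D14 libraries did not overlap either. With D28 A left out of the fit, *lama3*, *lamb3*, *dag1* and *fermt1* joined the members called higher at D14, for 9 in all.

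*fermt1* is the kindlin of epithelia, which activates integrins by binding β tails. It was at 5.12, 4.49 and 2.83 CPM at D7, 14.3, 20.9 and 16.1 CPM at D14 and 3.51, 25.6 and 15.5 CPM at D28. D14 libraries did not overlap with D7, whereas D28 A fell inside the D7 range, and the log2 fold change to D14 of 2.03 ± 0.62 missed the threshold (edgeR, adjusted p = 0.08402).

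The genes of α6β4 and these laminin chains had higher means at D14 than at D7, as did the epidermal markers. Of 15 such markers tested, 14 were called higher at D14 than at D7 and 12 higher at D28 than at D7. The median log2 fold changes were 2.93 and 2.75. The marker list was chosen with earlier results of these data known, so these counts are not independent of them. The summed level of *itga6*, *itgb4*, *lama3* and *lamb3* was 45.1 to 95.3 CPM at D7, 220.5 to 298 CPM at D14, 121 to 309.5 CPM at D28, 153.5 to 295 CPM in PBS and 198 to 425 CPM in ZA libraries. Divided by the summed epidermal markers, it came to 0.0567 to 0.0969 at D7 and 0.0389 to 0.0471 at D14. In D28 A this ratio was 0.102, and in D28 B and C it was 0.0423 and 0.0445. The part of the epidermal cells or RNA in the level of these genes was not tested.

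**Figure D3:**
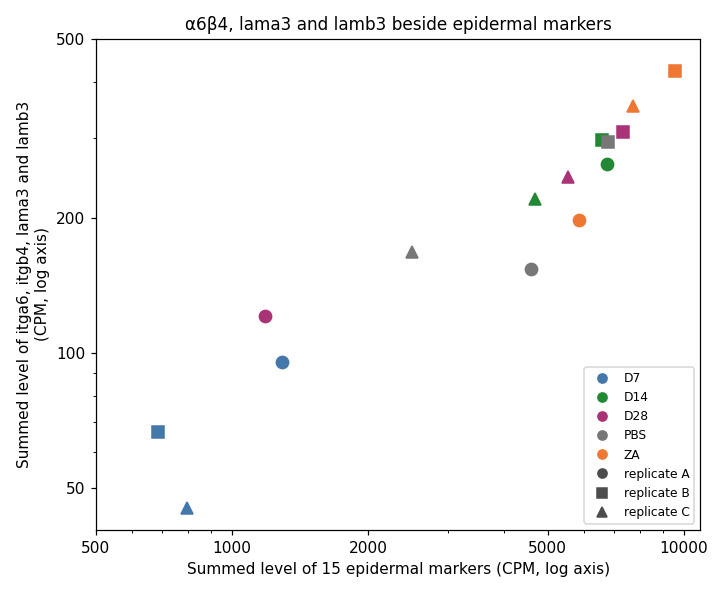
Summed level of *itga6*, *itgb4*, *lama3* and *lamb3* (vertical, CPM, log axis) against the summed level of 15 epidermal markers (horizontal, CPM, log axis), 1 point per library, coloured by group and shaped by replicate. The 3 D7 libraries lie lowest on the vertical axis, D28 A lies beside them on the horizontal axis at 1186 CPM, and ZA B lies highest on both, at 425 and 9537 CPM.

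Among the collagen-binding α chains, 1 of 4 passed the test. *itga2*, whose α2β1 receptor binds fibrillar collagen and is abundant on keratinocytes and platelets, was at 29.2, 10.9 and 5.65 CPM at D7, 51.7, 140 and 79.5 CPM at D14 and 28.1, 56.7 and 47.7 CPM at D28. D14 libraries all lay above D7, while D28 A lay within the D7 range. It rose by 2.56 ± 0.58 from D7 to D14 (edgeR, adjusted p = 0.0292), a call lost without D7 B, D7 C or any D14 library (highest adjusted p = 0.144). *itga1*, the other widely expressed collagen receptor chain, was at 29.6, 27.04 and 21.9 CPM at D7 and 12.96, 23.6 and 21.5 CPM at D14, a log2 fold change of -0.44 ± 0.33 that did not pass (edgeR, adjusted p = 0.479). *itga11*, a collagen receptor chain of fibroblasts, had lower values at D14 (95.03, 94.7 and 131 CPM) than at D7 (169, 224 and 232 CPM) without overlap, and *itga10*, known from cartilage, overlapped. Neither passed (adjusted p = 0.127 and 0.2795).

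*itga2* and *itga1* lie next to each other on chromosome 2, from 297929079 to 298093259, with 20536 bases between them. *lamb4* and *lamb1* are neighbours on chromosome 5 (82863469 to 83066041). The ratio of *itga2* to *itga1* counts was 0.988, 0.404 and 0.258 at D7 and 3.99, 5.95 and 3.702 at D14. That of *lamb4* to *lamb1* was 0.0264, 0.0382 and 0.00521 and then 0.116, 0.147 and 0.0593. Both ratios were higher in every D14 than in every D7 library, by 3.25 and 2.53 on the log2 scale. The second rested on only 32, 45 and 6 *lamb4* counts in D7 A, B and C. *lamb4* itself did not pass from D7 to D14 (1.77 ± 1.15, edgeR, adjusted p = 0.413), nor did *lamb1*. At D28 they were 0.773, 1.63 and 1.41 and 0, 0.148 and 0.0531, overlapping D7 in both. For D14 against D7 the exact two-sided permutation p was 0.10 for each, the smallest that 3 against 3 libraries can give, and the pairs were picked after their values were seen.

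*itgb3* and *itga5*, chains of vitronectin and fibronectin receptors, were highest at D7. *itgb3* (chromosome 6, 36525657 to 36597641), the β chain of αvβ3 and of the platelet fibrinogen receptor, was at 199, 168 and 192 CPM at D7, 30.4, 50.05 and 44.2 CPM at D14 and 62.6, 36.3 and 61.3 CPM at D28. All D7 libraries lay far above all later ones. It fell by 2.17 ± 0.32 on the log2 scale to D14 (edgeR, adjusted p = 0.00735) and at D28 was lower than at D7 by a log2 fold change of -1.81 ± 0.32 (adjusted p = 0.00982). Both calls held in each of 9 fits with 1 library left out (highest adjusted p = 0.0488 and 0.0458). D21 libraries also lay below every D7 library, at 20.1, 49.3 and 59.5 CPM in PBS and 25.5, 34.4 and 40.5 CPM in ZA.

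*itga5* (chromosome 2, 174507538 to 174627169), the α chain of the main fibronectin receptor α5β1, was at 482, 535 and 666 CPM at D7, 165, 165 and 206 CPM at D14 and 204, 193 and 197 CPM at D28. Again every D7 library exceeded every later one. It fell by 1.66 ± 0.28 on the log2 scale to D14 (edgeR, adjusted p = 0.00922) and stayed lower at D28 (-1.52 ± 0.28, adjusted p = 0.0108). The D14 call was lost without D7 B, D7 C, D14 A or D14 B (highest adjusted p = 0.0692) and the D28 call only without D7 C (0.0528). Fibroblast markers, 11 of 12 listed being in the files and none at 0 throughout a group, summed to 24580 to 28030 CPM at D7, 9243 to 11030 CPM at D14 and 28730 to 102600 CPM at D28. Much of this sum came from collagen genes such as *col1a1*, at 7635, 8553 and 7103 CPM at D7 and 52770, 12760 and 13620 CPM at D28. Of the 11, 3 were called lower at D14 than at D7, with a median log2 fold change of -1.27 and 1 above 0. At D28, 1 was called higher and 2 lower than at D7, with a median of -0.54 and 5 above 0. Their part in the values of *itgb3* and *itga5* was not tested.

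The remaining RGD-binding α chains, named for the Arg-Gly-Asp motif of fibronectin and vitronectin, made no call. *itgav*, the αv partner of several β chains, was at 228, 197 and 167 CPM at D7, 96.7, 149 and 109 CPM at D14 and 265, 100 and 169 CPM at D28, with a log2 fold change to D14 of -0.74 ± 0.36 (edgeR, adjusted p = 0.255). D14 libraries lay below D7, but D28 overlapped both. *itga8*, a nephronectin receptor chain, and *itga2b*, the platelet α chain, overlapped between D7 and D14, and *itga2b* stayed at or below 11.7 CPM in every library.

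Among β chains that can pair with αv, *itgb5* was the flattest member of all, with group means from 60.7 CPM at D7 to 66.5 CPM in PBS, a 1.10-fold range. Its values were 50.7, 80.1 and 51.3 CPM at D7, 74.96, 52.8 and 61.02 CPM at D14 and 50.6, 76.5 and 57.5 CPM at D28, overlapping throughout, and its log2 fold change from D7 to D28 was 0.01 ± 0.31. *itgb1*, the common partner of most α chains, made no call either, with means of 37.5 ± 8.78 CPM, 30.5 ± 8.83 CPM and 46.6 ± 5.801 CPM at D7, D14 and D28 (SD, n = 3). *itgb6* and *itgb8*, whose αv pairs activate latent TGF-β, had every D14 library above every D7 library, at log2 fold changes of 1.39 ± 0.66 and 0.82 ± 0.41, and did not pass (adjusted p = 0.2498 and 0.2795). The leukocyte chains *itgb2* and *itgb7* stayed at or below 9.01 CPM in every library and made no call.

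*itga4* and *itga9* encode related α chains that bind fibronectin variants, VCAM1 and tenascin. *itga9* was at 190, 186 and 181 CPM at D7, 91.8, 91.1 and 118 CPM at D14 and 17.7, 88.7 and 66.1 CPM at D28, and the 3 timepoints did not overlap. At D28 it was lower than at D7 by a log2 fold change of -1.697 ± 0.46 (edgeR, adjusted p = 0.0435). *itga4* was at 57.5, 44.8 and 53.6 CPM at D7, 49.5, 45.8 and 52.8 CPM at D14 and 17.3, 31.1 and 23.2 CPM at D28, so D28 lay below both. It fell by 1.13 ± 0.31 on the log2 scale from D7 to D28 (edgeR, adjusted p = 0.04498). Both calls were near the threshold and were lost without any single D7 or D14 library or D28 C (highest adjusted p = 0.126 for *itga9* and 0.125 for *itga4*).

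**Figure D4:**
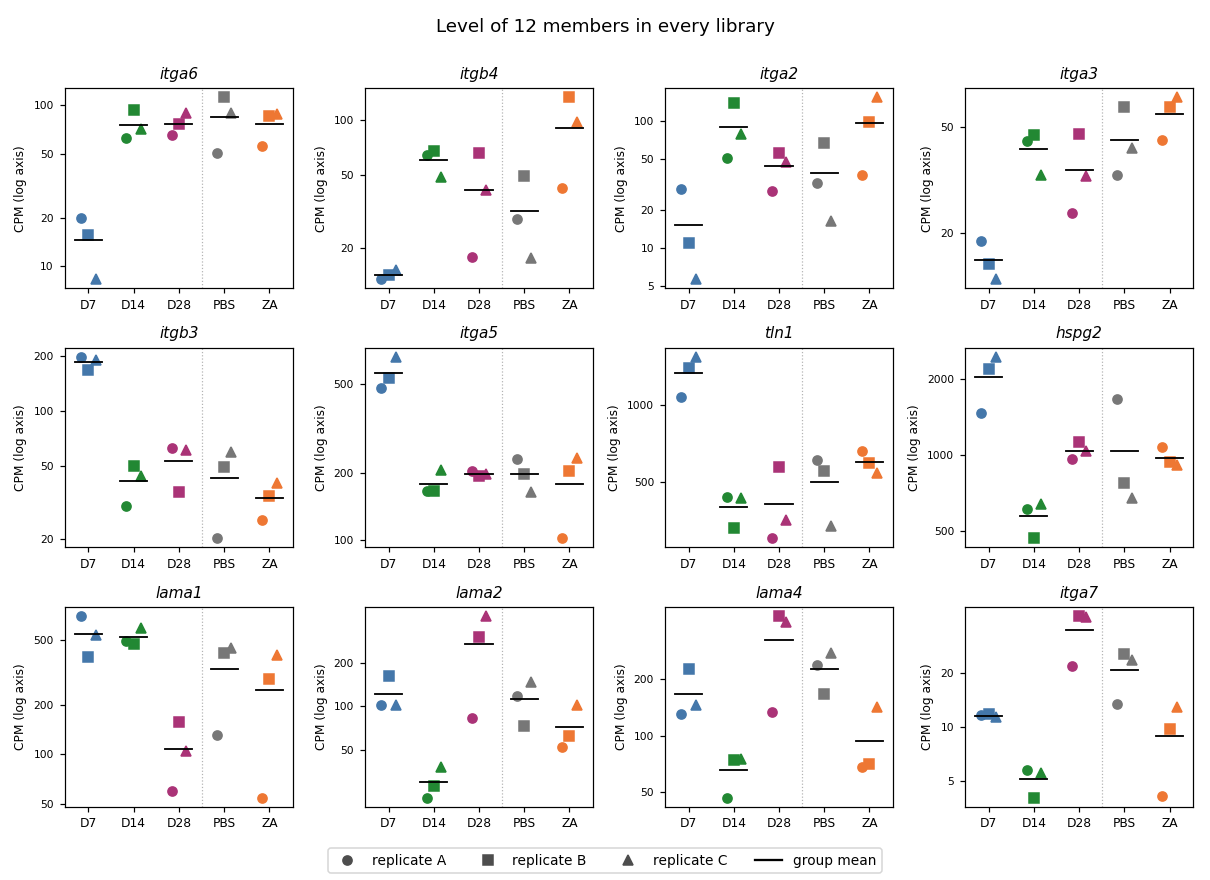
Level of 12 members in each library (CPM, log axis, each panel with its own range), with circles, squares and triangles for replicates A, B and C and a bar for the mean of each group of 3. *itga6*, *itgb4*, *itga2* and *itga3* in the top row are lowest at D7, *itgb3*, *itga5*, *tln1* and *hspg2* in the middle row are highest at D7, and *lama2*, *lama4* and *itga7* in the bottom row are lowest at D14 among the timepoints.

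Of the 8 adaptors, 2 fell to D14 and 2 were lower at D28 than at D7, and none was called higher. *tln1* encodes talin, the rod that binds β tails and actin. It was at 1073, 1400 and 1550 CPM at D7, 437, 329 and 434 CPM at D14 and 301, 573 and 355 CPM at D28. All D7 libraries exceeded all later ones. It fell by 1.76 ± 0.34 on the log2 scale to D14 (edgeR, adjusted p = 0.0165) and was at -1.73 ± 0.34 relative to D7 at D28 (adjusted p = 0.0145). The first call was lost without D7 B, D7 C or any D14 library (highest adjusted p = 0.101) and the second without D7 B, D7 C or D28 C (0.0694).

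*fermt2*, the kindlin of fibroblasts and muscle, was at 201, 217 and 222 CPM at D7, 73.1, 73.95 and 99.3 CPM at D14 and 140, 146 and 115 CPM at D28. The 3 timepoints did not overlap, with D14 lowest. It fell by 1.39 ± 0.27 on the log2 scale to D14 (edgeR, adjusted p = 0.0155), lost without D7 B, D7 C, D14 A or D14 B (highest adjusted p = 0.102), and its later difference of 0.699 ± 0.26 did not pass (adjusted p = 0.321). *ilk*, the integrin-linked pseudokinase, was at 97.01, 100 and 128 CPM at D7 and 47.8, 66.2 and 39.3 CPM at D28 and fell by 1.101 ± 0.31 over that interval (log2, edgeR, adjusted p = 0.0466). That call was lost without any single D7 or D14 library or D28 C (highest adjusted p = 0.1598). *parva* and *vcl*, for parvin and vinculin, and *tln2*, the second talin, had D14 libraries below D7 without overlap and made no call (adjusted p = 0.241, 0.196 and 0.0968). *fermt3*, the kindlin of blood cells, was at 8.27, 33.6 and 33.6 CPM at D7 and between 6.89 and 13.1 CPM in every later library.

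Laminin α chains changed in both directions. *lama2* (chromosome 1, 88449944 to 89080934), the α2 chain of the basement membranes of muscle and Schwann cells, was at 102, 164 and 102 CPM at D7, 23.3, 27.9 and 38.1 CPM at D14 and 82.4, 304 and 425 CPM at D28. D14 lay below both other timepoints without overlap, while D28 A lay below the D7 libraries and D28 B and C above them. It fell by 2.05 ± 0.51 on the log2 scale to D14 (edgeR, adjusted p = 0.0421) and then rose by 3.196 ± 0.53 to D28 (adjusted p = 0.0164). The fall was lost without any single D7 or D14 library (highest adjusted p = 0.173) and the rise without any single D14 library (0.118).

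*lama4* (chromosome 1, 99140459 to 99252429), the α4 chain of vessel and mesenchymal basement membranes, followed a like course at 130, 224 and 145 CPM at D7, 46.96, 74.2 and 74.9 CPM at D14 and 133, 431 and 398 CPM at D28. D14 was again below both other timepoints. It rose by 2.297 ± 0.45 from D14 to D28 (edgeR, adjusted p = 0.0345), a call lost without any single library other than D28 A (highest adjusted p = 0.2002). The preceding difference of -1.36 ± 0.43 missed the threshold (adjusted p = 0.0942).

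*itga7*, whose α7β1 receptor binds laminins of muscle and Schwann cells, was at 11.53, 11.7 and 11.3 CPM at D7, 5.703, 4.02 and 5.51 CPM at D14 and 21.7, 41.5 and 40.7 CPM at D28. The timepoints did not overlap, with D14 lowest and D28 highest. It rose by 2.77 ± 0.404 from D14 to D28 (edgeR, adjusted p = 0.00846), lost without any single D14 library (highest adjusted p = 0.0802), and at D28 was 1.58 ± 0.39 above D7 (adjusted p = 0.0296). The latter call was lost without any D7 library, D14 A, D14 C, D28 B or D28 C (highest adjusted p = 0.1003). Of 10 Schwann cell markers tested, 3 were called higher and 1 lower at D14 than at D7. From D14 to D28, 2 were called higher, and 7 were higher at D28 than at D7. Their summed level was 237 to 283 CPM at D7, 442 to 505 CPM at D14 and 552 to 1084 CPM at D28, and none was at 0 throughout a group. Skeletal muscle markers summed to 45.9 to 69.6 CPM at D7, 159 to 201 CPM at D14 and 172 to 327 CPM at D28, with *actn2* at 0 in all D7 libraries. Of 9 tested, 1 was called higher at D14 than at D7, 1 higher at D28 than at D14 and 3 higher at D28 than at D7. Fibroblast markers summed to 24580 to 28030 CPM at D7, 9243 to 11030 CPM at D14 and 28730 to 102600 CPM at D28. The part of any of these lists in *itga7*, *lama2* and the other members with their lowest time course mean at D14 was not tested.

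*lama1* (chromosome 4, 60449263 to 60570551), the α1 chain typical of embryonic and epithelial basement membranes, moved the other way. It was at 697, 392 and 536 CPM at D7, 494, 472 and 588 CPM at D14 and 59.5, 158 and 105 CPM at D28. All D28 libraries lay below all earlier ones, which overlapped with each other. It fell by 2.27 ± 0.39 on the log2 scale from D14 to D28 (edgeR, adjusted p = 0.0188) and by 2.34 ± 0.39 from D7 to D28 (adjusted p = 0.00843). The second call held in each of 9 fits with 1 library left out (highest adjusted p = 0.04395), and the first was lost without any single D14 library or D28 C (0.101).

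The number of *lama1* counts per *lama2* count was 6.87, 2.40 and 5.25 in the D7 libraries, 21.2, 16.9 and 15.5 at D14 and 0.722, 0.520 and 0.246 at D28. The 3 timepoints did not overlap. At D21 the ratio was 1.12, 5.70 and 2.997 in PBS and 1.04, 4.66 and 3.90 in ZA libraries. These values lay between those of D28 and D14, overlapped those of D7 and overlapped between treatments. The D21 libraries come from a separate experiment and were not tested against the time course. The ratio depends on transcript length as well as on level, so its changes between libraries are given and not its value against 1.

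**Figure D5:**
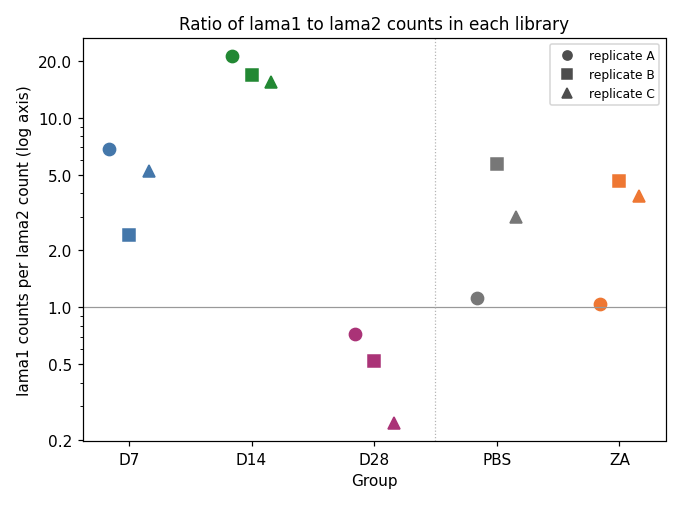
Number of *lama1* counts per *lama2* count in each library (log axis) by group, with shapes for replicates A, B and C and a line at equal counts. D14 libraries lie highest, at 15.5 to 21.2, D28 libraries lie lowest, at 0.246 to 0.722, and PBS and ZA libraries overlap.

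*lama5*, the α5 chain of mature epithelial and vessel basement membranes, was at 76.3, 92.5 and 71.8 CPM at D7, 109, 106 and 112 CPM at D14 and 52.5, 184 and 107 CPM at D28 and made no call. Neither *lamb1* nor *lamc1*, the widely shared β1 and γ1 chains, passed in any comparison of all 9 libraries. *lamc1* was at 195, 179 and 157 CPM at D7, 97.2, 114 and 105 CPM at D14 and 107, 173 and 240 CPM at D28, with D14 below D7 without overlap (-0.76 ± 0.32, edgeR, adjusted p = 0.197). *lamb1* was at 141, 136 and 155 CPM at D7 and 90.5, 108 and 122 CPM at D14, without overlap (-0.44 ± 0.301, adjusted p = 0.436). *lamb4*, a β chain with no assigned trimer, reached at most 24.8 CPM in any library and had 0 counts in D28 A.

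Linkers were lower at D14 for perlecan and nidogen 2. *hspg2*, which encodes perlecan, a heparan sulfate proteoglycan, was at 1464, 2192 and 2458 CPM at D7, 612, 468 and 638 CPM at D14 and 961, 1128 and 1034 CPM at D28. The timepoints did not overlap. It fell by 1.84 ± 0.33 on the log2 scale to D14 (edgeR, adjusted p = 0.0126), lost without D7 B, D7 C or any D14 library (highest adjusted p = 0.0802), and the later difference of 0.86 ± 0.32 did not pass (adjusted p = 0.322).

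*nid2*, one of the nidogens that bridge laminin and type IV collagen, was at 124, 189 and 153 CPM at D7, 44.1, 55.3 and 54.9 CPM at D14 and 113, 143 and 178 CPM at D28, with D14 below both other timepoints. It fell by 1.604 ± 0.303 on the log2 scale and then rose by 1.495 ± 0.302 (edgeR, adjusted p = 0.0146 and 0.0408). The fall was lost without D7 B, D7 C or any D14 library (highest adjusted p = 0.0896) and the rise without any single library other than D28 A (0.252). *nid1* also had its lowest time course mean at D14, with 33.3 ± 3.46 CPM, 18.6 ± 5.25 CPM and 52.5 ± 32.9 CPM (SD, n = 3) at D7, D14 and D28, but D28 overlapped D7 and D14 and it made no call. *agrn*, the gene of agrin, was at 201 ± 43.8 CPM, 157 ± 6.35 CPM and 113 ± 45.9 CPM (SD, n = 3) and overlapped in each comparison. *dag1*, the gene of the laminin receptor dystroglycan, was at 30.3, 39.1 and 47.6 CPM at D7 and 66.3, 61.5 and 70.5 CPM at D14, and D28 libraries at 53.1, 110 and 86.0 CPM also lay above D7. Its log2 fold change of 1.08 ± 0.33 from D7 to D28 missed the threshold (edgeR, adjusted p = 0.0631).

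The 3 genes that match by symbol only were at or below 8.68 CPM in every library and made no call. *itgb1bp1* encodes a binding partner of the β1 tail, *itgb1bp2* the muscle protein melusin and *itgb3bp* a centromere protein. Their widest log2 fold change, -2.55 ± 1.65 for *itgb1bp2* from D7 to D28, rested on levels of at most 3.34 CPM.

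The counts of members called at each step moved with single libraries, and D28 A was the only one whose removal raised all 3. Without it, 22 members were called between D7 and D14 (9 higher, 13 lower), 7 between D14 and D28 (6 higher, 1 lower) and 20 between D7 and D28 (12 higher, 8 lower), and all 27 calls of the full fit were among them. Calls over all genes rose too. Of 21010 genes tested, 1854 were higher and 1735 lower from D7 to D14, where the full fit called 474 and 512. From D14 to D28 these counts were 551 and 309 (144 and 75 in the full fit). From D7 to D28 they were 2317 and 1929 (864 and 897). Leaving out any other single library gave 1 to 12, 0 to 3 and 3 to 9 calls in these comparisons. Over all genes those fits called 30 to 538 higher and 37 to 610 lower, 12 to 135 and 20 to 69, and 118 to 726 and 173 to 883. The cause was not tested. Requiring an absolute log2 fold change over 2, a threshold of the study's methods, left 5, 4 and 2 calls, beside 509, 160 and 910 of all 21326 genes.

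ZA and PBS libraries were compared to ask whether the adhesion genes of the sorted D21 cells differed with ZA. No measure of osteoclast activity was used here. The PBS and ZA libraries were tested in a fit of their own. None of the 46 members tested was called by edgeR's quasi-likelihood test, the lowest adjusted p being 0.863. At an unadjusted p under 0.05, 12 members differed, 5 higher and 7 lower with ZA, and 897 of 18988 genes did so. DESeq2 and limma's voom also called 0 members. The labels do not say whether replicate letters pair the PBS and ZA libraries. Deviations from group means correlated at 0.20 to 0.31 for the same letter and at -0.28 to 0.10 for other letters. A fit paired by letter called 0 members as well, with *lama4* closest at an adjusted p of 0.0869 (edgeR).

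ZA and PBS libraries did not overlap in 10 members, 3 higher and 7 lower with ZA, or 21.7% of those tested, where 10.6% of all genes tested did not. *lama4* was at 237, 165 and 273 CPM in PBS A, B and C and 68.2, 70.9 and 142 CPM in ZA A, B and C, a log2 fold change of -1.29 ± 0.397 (edgeR, adjusted p = 0.863). *itga8* was at 21.6, 46.1 and 70.6 CPM and 16.7, 9.37 and 19.7 CPM (-1.605 ± 0.51, adjusted p = 0.863). *lamb3* was at 21.99, 29.7 and 10.6 CPM and 32.2, 80.2 and 68.4 CPM (1.503 ± 0.48, adjusted p = 0.863). ZA libraries lay below PBS for *lama4* and *itga8* and above it for *lamb3*.

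*itgb4* was at 28.7, 49.4 and 17.6 CPM in PBS and 42.7, 133 and 97.2 CPM in ZA libraries, where ZA A overlapped PBS B (1.48 ± 0.49, edgeR, adjusted p = 0.895). Within each of the 3 letter pairs ZA was above PBS, and the paired fit gave an adjusted p of 0.1803. *itga7*, *nid2*, *parva*, *itga11* and *itgb3bp* were the other members lower in every ZA library, with log2 fold changes from -1.24 to -0.72, and *lamb4* was also higher, at 1.87. Epidermal markers summed to 4596, 6778 and 2498 CPM in PBS A, B and C and 5862, 9537 and 7733 CPM in ZA A, B and C, higher with ZA in each pair, in cells whose gate is described as *krt5*-. Cartilage markers summed to 2633 to 18400 CPM in PBS and 234 to 500 CPM in ZA libraries. Their part in these values was not tested. With both A libraries removed and the letters kept as a block, a design chosen after the data were seen that leaves 1 residual degree of freedom, 4 members were called, *itgb4* (1.92 ± 0.33) and *lamb3* (2.02 ± 0.38) higher and *itga8* (-2.08 ± 0.37) and *lama4* (-1.10 ± 0.25) lower (edgeR, adjusted p = 0.0134, 0.0221, 0.0161 and 0.0471). That fit tested 45 members and 17613 genes in all, and called 189 genes higher and 127 lower.

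Other genes of the same pathways were counted from lists. Of 22 further basement membrane genes, 4 were called higher and 4 lower at D14 than at D7. The higher ones included *col17a1*, the hemidesmosomal collagen (1.53, edgeR, adjusted p = 0.0351), and *fras1*, an epithelial matrix protein (2.79, adjusted p = 0.00684). The lower ones included both chains of the main type IV collagen, *col4a1* (-2.16, adjusted p = 0.0127) and *col4a2* (-1.996, adjusted p = 0.00771). From D14 to D28, 5 were higher and 1 lower, with *col4a1* at 2.43, *col4a2* at 2.52 and *col15a1* at 3.26 (adjusted p = 0.0146, 0.00373 and 0.000748). From D7 to D28, 5 were higher and 1 lower.

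Of 20 integrin ligands, 5 were called at D14 against D7, all lower, 6 at D28 against D14, all higher, and 4 at D28 against D7, all lower. *fn1*, the gene of fibronectin, fell by 1.43 on the log2 scale from D7 to D14 (edgeR, adjusted p = 0.0436), and *tnc*, the gene of tenascin C, by 2.51 from D7 to D28 (adjusted p = 0.00369). *postn*, the gene of periostin, rose by 2.45 from D14 to D28 (adjusted p = 0.0112). Of 21 focal adhesion genes tested, 1 was higher and 2 lower at D14 than at D7, the higher one being the laminin receptor gene *bcam* (2.05, adjusted p = 0.0138), and 1 was higher from D14 to D28 and 1 lower from D7 to D28. Among 16 partners of dystroglycan, the one call was *dmd*, for dystrophin, higher at D28 than at D7 (2.29, adjusted p = 0.0334). Between ZA and PBS edgeR's unpaired fit called none of the 79 genes of these 4 lists that were tested. Of these, 14 had an unadjusted p under 0.05, as did 897 of all 18988 genes tested. The fit paired by letter called 10 genes higher and 31 lower in all, among them the ligand gene *col1a1* (edgeR, adjusted p = 0.0463).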

How the data were processed

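RNA of *col3a1*+ sorted cells was measured in 15 libraries made with a stranded, ribosome-depleted total RNA kit. Alignment by the authors used STAR 2.7.6a and the assembly rAnoCar3.1.pri, and they deposited 1 table of gene counts per library. The submitters' processing notes also name SAMtools 1.17 and DESeq2 1.45.1. The deposited files are named as normalized but hold whole numbers with differing totals, and were used as counts. The counter, its strand setting and the treatment of duplicate reads were not given in the sources used here, so reads of overlapping genes are uncertain. Depth was 4237978 to 12699682 counts.

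Genes reaching 10 counts in 3 or more libraries of a fit were tested with edgeR 4.0.16 (TMM, quasi-likelihood test, no covariates) in R 4.3.3, with p-values adjusted after Benjamini and Hochberg over every gene tested and a threshold of 0.05. Time course libraries shared 1 fit, and PBS and ZA libraries another. The methods do not name a contrast, so timepoints were compared in pairs. Standard errors were derived from the log2 fold change and its F statistic. On simulated counts with known changes, DESeq2 made more false calls than edgeR or voom. In that simulation all genes and libraries shared the same spread beyond counting noise, and the changed genes were raised in a single group. The real libraries differ from this, so the false calls of each tool on them are not known. Python 3.11.15 and matplotlib 3.10.9 served for summaries and plots. All 47 members matched RefSeq by symbol, 8 of them on unplaced sequence. Counts of members cover all 47, of which 1 is not reported here by name and is left out of the plots. The members, pathway lists and marker lists were chosen with earlier results of these data known.

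After removal of group means, the deviations of same-letter PBS and ZA libraries had correlations of 0.31 (A), 0.25 (B) and 0.20 (C) over genes, so a paired fit was run. Alternatives were the replicate block, DESeq2 1.42.0, voom of limma 3.58.1 with library weights, DESeq2 size factors, total counts only, a mean count of 50 or more as filter, no filter, all 15 libraries in 1 fit, the study's fold threshold, each library left out, both A libraries of the treatment experiment left out, and groups by the recorded treatment entries. The replicate block without D28 A, or without both A libraries of the treatment experiment, was added after the data were seen. Sequences, images, FACS and PCR were not used here.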

Additional observations from a re-analysis of the deposited data

How the results depend on the processing

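No member call of the time course changed sign under any alternative. Of 270 values of the 27 calls under alternatives other than leaving out 1 library alone, 230 passed and 40 did not. These include the replicate block without D28 A, added after the data were seen, where 25 calls held. With 1 library left out and no block, from 7 (without D14 A) to 27 (without D28 A) of the 27 calls held. Besides the replicate block below, these alternatives on all libraries moved a count of members called by over 1.5 times. Voom gave 26 for D7 to D14 (12 in the report), and DESeq2 gave 20 for D7 to D28 (10 in the report). The fold threshold gave 5 for D7 to D14 and 2 for D7 to D28. DESeq2 made the most false calls on counts simulated with equal spread, but the false calls of each tool on these libraries are not known. Of all 21326 genes, voom called 2326 higher and 2150 lower for D7 to D14 (474 and 512 in the report). DESeq2 called 2133 and 1606 for D7 to D28 (864 and 897), and the fold threshold left 509 and 910 genes. With 1 library left out, counts ranged from 1 to 22 for D7 to D14, from 0 to 7 for D14 to D28 and from 3 to 20 for D7 to D28. Over all genes, 30 to 1854 were called higher and 37 to 1735 lower for D7 to D14. For D14 to D28 the ranges were 12 to 551 and 20 to 309, and for D7 to D28 118 to 2317 and 173 to 1929. The count of 0 members came without any 1 of the D14 libraries, where edgeR gave 9 to 11 members and 1353 to 1566 of all genes an unadjusted p under 0.05. The cause was not tested.

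In the time course the letters gave no sign of pairing, with correlations of -0.16 to 0.15 for the same letter. A replicate block there gave 9, 3 and 5 calls for D7 to D14, D14 to D28 and D7 to D28 (12, 5 and 10 in the report), and with D28 A also left out 19, 6 and 17, a design added after the data were seen. Of all 21326 genes the block called 281 higher and 297 lower, 66 and 43, and 334 and 475. With D28 A also left out it called 1366 and 1319, 295 and 136, and 1738 and 1364 of 21010. For ZA against PBS the replicate block gave 0 member calls, as did DESeq2, voom, other scalings and filters and each library left out, and leaving out both A libraries. Both changes at once, the block without the A libraries, gave 4, beside 189 genes higher and 127 lower of 17613 tested. Groups by the recorded treatment entries, without PBS A and with ZA A among PBS, gave 0 calls. There edgeR gave 5 of 46 members and 668 of 18347 genes an unadjusted p under 0.05. With total counts in place of TMM, the median over all genes moved from 0.053 to 0.257 for D7 to D14 and from 0.041 to -0.115 for D14 to D28, and 25 of the 27 calls held. With 3 libraries a group, members below about 10 CPM had standard errors of up to 1.65 on the log2 scale so small changes could not be detected there.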

Other observations

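Other cell type marker lists gave these values. For endothelium, 16 of 16 markers were in the files, and their summed level was 107 to 113 CPM at D7, 149 to 212 CPM at D14 and 78.8 to 167 CPM at D28, with 1 marker called higher at D14 than at D7 by edgeR. For macrophages and leukocytes, 11 of 15 were in the files at summed levels of 52.1 to 259 CPM over the 15 libraries, and 1 was called lower at D14 than at D7. Thrombocyte and erythrocyte markers, 5 of 11 in the files, summed to 5.75 to 134 CPM and made no call at an adjusted p under 0.05 in any comparison. Smooth muscle and pericyte markers, 6 of 8 in the files, summed to 560 to 1729 CPM, and 2 (*cspg4* and *tagln*) were lower at D14 than at D7. At D28 *cspg4* was higher than at D14 and at D7 (log2 fold changes of 2.697 and 1.18, edgeR, adjusted p = 0.002647 and 0.0304), and *tagln* was lower than at D7 (-1.63, adjusted p = 0.0167). Cartilage markers summed to 114 to 611 CPM at D7, 380 to 456 CPM at D14 and 5017 to 7399 CPM at D28, and 6 of 8 were called higher at D28 than at D7, 5 were higher at D28 than at D14, and 2 were lower in ZA than in PBS libraries.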
